A study of Homo sapiens with 4 samples.

Results

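Krüppel-like factors (KLFs) are zinc finger transcription factors, and the genes of 10 of them, KLF2, KLF3, KLF4, KLF5, KLF6, KLF7, KLF9, KLF10, KLF12 and KLF13, were followed in peak lists of the histone mark H3K27ac. They are a list of names, set by no threshold on a measured value but chosen with earlier results of these data known. They make up 10 of the 19970 protein-coding genes on chromosomes 1 to 22 and X in GENCODE release 44. For each gene, peaks were collected within 1 kb of the canonical start site, here called promoter peaks, and across its locus, the gene body with 100 kb on either side. Width, fold enrichment over the local background and covered bases were read for every peak on chromosomes 1 to 22 and X in each list.

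The study examined how triple-negative breast cancer (TNBC) cells respond to the cytokine TWEAK, and these libraries record the chromatin of cells from which it had been withdrawn. H3K27ac ChIP-seq was available from 4 libraries, 2 of MDA-MB-231 and 2 of Hs578T, both established human TNBC lines. Cells of both lines had been starved in optimem for 8 h, had received 10 ng/ml TWEAK for 48 h with 1 renewal, and were then kept without it, for 72 h per the series description and for longer per the text of the study. Every library analysed here shares this treatment, and what TWEAK or its withdrawal changed cannot be read from them. Each group is a single cell line, and its values describe that line only.

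The list labelled MDA-MB-231 replicate 1 stood apart. Only peaks on the chromosomes named above were read, and in this list these were 209 of 318. They were 43353 of 43421 in MDA-MB-231 replicate 2, and 46330 of 46363 and 44920 of 44952 in the Hs578T lists. No peak of the small list lay within 100 kb of any of the KLF genes, and the nearest was 2538 kb from KLF6. Values below therefore refer to the 3 large lists unless the small one is named, and the lists are called by their labels. Markers of mesenchymal breast cancer cells (VIM, CD44, AXL, FOSL1, CAV1 and FN1) carried a promoter peak in 6 of 6 cases in each large list, and luminal markers in 1 of 6, ERBB3. None of 3 blood markers had one. Of 3 endothelial markers only PECAM1 did, with a fold enrichment of 14.3 in MDA-MB-231 replicate 2 and 2.82 in Hs578T replicate 1, and without a peak in Hs578T replicate 2.

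KLF proteins bind CACCC boxes and GC-rich elements through zinc fingers at their C-terminal end, and differ in the partners recruited by the rest of the protein. KLF2, KLF4, KLF5, KLF6 and KLF7 can bring acetyltransferases to a gene, KLF3 and KLF12 bind the corepressor CtBP, and KLF9, KLF10 and KLF13 bind the corepressor SIN3A. Several are induced rapidly by growth factors, cytokines or shear stress. H3K27ac is deposited by the acetyltransferases p300 and CBP at active promoters and enhancers, and genes that define a cell type often carry broad domains of it.

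Promoter sequences were taken from RefSeq on GRCh38.p14, from 250 bases before to 50 bases after the start, and were found for 8 of the 10 genes, with KLF3 and KLF10 unmatched. The 3 shown span the range among the members, from the most GC-rich promoter (KLF2) through the one with the most CACCC boxes (KLF12) to the most AT-rich (KLF9). Capitals mark CACCC boxes and GC boxes (GGGCGG) on either strand, the reverse complements being GGGTG and CCGCCC, and neighbouring matches can overlap or run together.
KLF2 promoter, chr19:16324576-16324875, + strand: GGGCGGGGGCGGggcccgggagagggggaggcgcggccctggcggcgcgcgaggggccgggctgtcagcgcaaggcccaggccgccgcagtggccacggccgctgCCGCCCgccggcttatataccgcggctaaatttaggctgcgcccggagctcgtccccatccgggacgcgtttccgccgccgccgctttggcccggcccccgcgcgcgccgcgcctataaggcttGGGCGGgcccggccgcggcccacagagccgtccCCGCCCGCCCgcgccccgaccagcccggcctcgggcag
KLF12 promoter, chr13:74134355-74134654, - strand: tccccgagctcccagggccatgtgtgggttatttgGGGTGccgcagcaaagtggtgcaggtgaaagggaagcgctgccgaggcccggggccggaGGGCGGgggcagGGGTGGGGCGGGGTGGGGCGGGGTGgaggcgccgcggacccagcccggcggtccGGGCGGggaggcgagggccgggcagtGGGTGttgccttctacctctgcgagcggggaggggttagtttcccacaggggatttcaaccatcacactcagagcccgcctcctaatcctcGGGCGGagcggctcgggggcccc
KLF9 promoter, chr9:70414608-70414907, - strand: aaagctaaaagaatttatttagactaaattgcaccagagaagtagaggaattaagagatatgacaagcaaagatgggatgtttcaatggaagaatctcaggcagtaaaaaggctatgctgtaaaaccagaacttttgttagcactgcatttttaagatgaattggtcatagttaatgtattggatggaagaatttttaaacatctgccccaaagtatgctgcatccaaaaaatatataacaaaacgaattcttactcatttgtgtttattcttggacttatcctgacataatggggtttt

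Seen in these sequences, the KLF2 promoter was 80.7% G or C with 49 CG dinucleotides, and KLF9 was 32.7% G or C with 1. The median of the 8 promoters was 71.0%, beside 58.7% over all 35116 RefSeq promoters. GC boxes were present in 6 of the 8, all but KLF7 and KLF9, beside 45.0% of all promoters. CACCC boxes, the letters bound by KLF proteins themselves, were found in 4 of the 8 (KLF5, KLF7, KLF12 and KLF13), beside 59.9% of all promoters. The KLF2 promoter alone held a loose form of the MEF2 motif, CTA and TAG with any 4 bases between them, which 2.73% of promoters carry. None of the 8 held an AP-1 motif (TGACTCA or TGAGTCA, which are reverse complements of each other), a CRE (TGACGTCA) or TATAAA on either strand. Among all promoters, 4.95%, 1.85% and 11.5% held these. Such matches describe the letters in these windows and do not show that a factor was bound.

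The start sites of all 10 KLF genes followed here were marked in the large lists, and none was in the small list. Of the other 8 KLF genes 2 were marked in each large list, so 10 of 10 holds for the chosen names and not for the family. Of all 19970 genes, promoter peaks were found at 58.1% for MDA-MB-231 replicate 2, 58.2% for Hs578T replicate 1, 56.4% for Hs578T replicate 2, and 0.0601% for MDA-MB-231 replicate 1. Every KLF gene followed here had a single promoter peak per large list. At KLF2, KLF3, KLF4, KLF6, KLF7 and KLF10 its region also lay over or near the start of another gene, and the mark does not tell the genes apart. The peaks were broad. Their median width over the members was 4590, 4799 and 4779 bp in MDA-MB-231 replicate 2, Hs578T replicate 1 and Hs578T replicate 2, beside 1792, 1897 and 1804 bp over all marked promoters. All 10 were wider than 75% of marked promoters in each of these lists. Such width was not particular to them. In MDA-MB-231 replicate 2, peaks at SIN3A (7214 bp) and MEF2D (7643 bp), read below, were wider than the median of the members. In that list the 2 other marked KLF genes, KLF11 (2352 bp) and KLF16 (3093 bp), had narrower peaks than every member. Fold enrichment of the members was less set apart. Its median percentile among marked promoters was 72.7, 72.0 and 65.8, and 9 of 10 genes were above the 50th percentile in each list, KLF5 being the exception. In a broad peak the fold enrichment is averaged over the whole width, and its scale is set by the background of the library, which is why only ranks within a list were compared between lists.

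**Figure D1:**
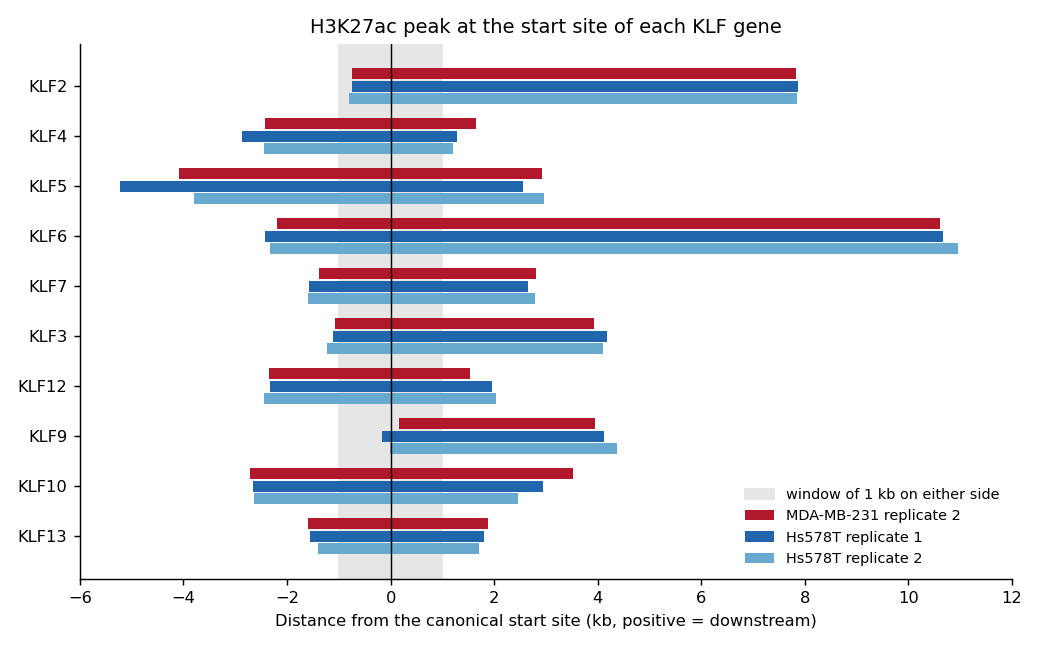
Bars show the promoter peak of each KLF gene as distance from the canonical start site in kb, positive values being downstream, in the 3 large lists. The KLF6 peak is the widest in each list, at 12809 to 13272 bp, and the KLF9 peak lies almost wholly downstream of the start.

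**Figure D2:**
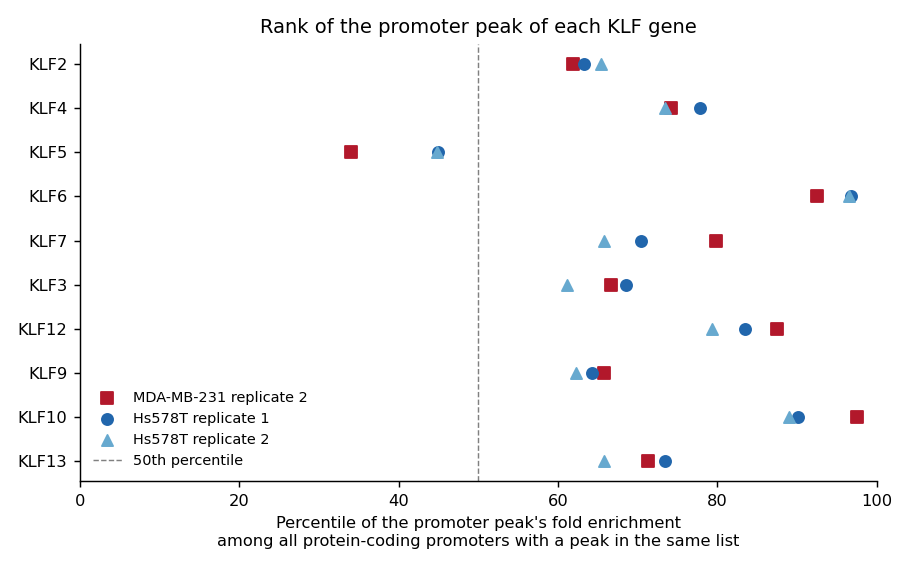
Points show the percentile of the promoter peak's fold enrichment among all protein-coding promoters with a peak in the same list, for each KLF gene and large list. KLF6 and KLF10 lie highest in all 3 lists, and KLF5 is left of the dashed line at the 50th percentile.

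Averaged over the 3 large lists, the percentiles ran from 95.2 for KLF6 and 92.2 for KLF10, through 83.4 for KLF12, 75.1 for KLF4, 72.0 for KLF7 and 70.2 for KLF13, to 65.4 for KLF3, 64.1 for KLF9, 63.5 for KLF2 and 41.3 for KLF5. The SD between the Hs578T lists ranged from 0.119 for KLF5 to 5.45 for KLF13. KLF6 and KLF10, and the neighbours in this order from KLF4 to KLF2, were separated by less than this largest SD, whereas KLF12 and KLF5 were separated from their neighbours by more.

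Among the genes whose products recruit acetyltransferases, KLF6 had the widest and the highest-ranked promoter peak and the most covered locus. KLF6, known as a rapidly induced gene of injury and growth factor signalling, lies on the minus strand at chr10:3775996-3785281. Its promoter peak measured 12809, 13101 and 13272 bp in MDA-MB-231 replicate 2, Hs578T replicate 1 and Hs578T replicate 2, and reached from 2191, 2424 and 2323 bp before the start to beyond the end of the gene. The fold enrichment of this peak was 20.04, 22.5 and 17.6, at percentiles 92.4, 96.7 and 96.5. The whole gene body was covered in each list, as it was for KLF2 and no other member. Among all genes, 1.22%, 1.51% and 1.18% had a wholly covered body in the 3 lists. Peaks took up 47617, 47654 and 46600 bp of the KLF6 locus, more than for any other member, and 22.8%, 22.8% and 22.3% of its length. Upstream lay a second broad region at chr10:3802779-3814887, centred at -23.6 kb (negative values are upstream of the start), which also holds the start of an unnamed lncRNA. Its fold enrichment of 27.8, 33.2 and 28.5 was higher than that of the KLF6 promoter peak in each list. Regions over 2.5 kb from any canonical start site are here called distal. Of these, that at -67.1 kb had the highest mean over the large lists, with fold enrichment of 11.9, 22.4 and 18.4. In MDA-MB-231 replicate 2 the distal regions at 29.98 kb and at -42.5 kb, both with 13.4, exceeded it. That peak was at the 82.2nd percentile of all peaks in MDA-MB-231 replicate 2 and at the 97.3rd and 97.1st in the Hs578T lists.

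KLF2, a regulator of endothelial quiescence and T cell trafficking, is a compact gene on the plus strand at chr19:16324826-16328685. A peak of 8568, 8617 and 8649 bp began 743 to 800 bp before its start and covered the gene and several kb beyond. Its fold enrichment of 10.9, 9.90 and 8.54 was at the 61.9th, 63.3rd and 65.4th percentile of marked promoters. Next to it, centred at 13.6 kb, an intergenic region at chr19:16335790-16341122 carried far higher values. The peak there had a fold enrichment of 63.4 in MDA-MB-231 replicate 2, the highest of the 43353 peaks read in that list. In the Hs578T lists it had 44.2 and 34.5, and was number 29 of the 46330 and number 50 of the 44920 peaks read. The peaks there were 5164, 4986 and 4946 bp wide in the 3 lists. A further strong region lay at -31.2 kb inside the divergent lncRNA KLF2-DT, with fold enrichment of 17.1, 18.2 and 14.3. Altogether 28114, 26522 and 25563 bp of the KLF2 locus were covered, and the regions from 48.9 kb onwards fell in introns of the neighbouring gene EPS15L1.

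KLF4, a pluripotency factor and regulator of epithelial differentiation, lies on the minus strand at chr9:107484852-107490482. Its promoter peak of 4078, 4149 and 3656 bp had fold enrichment of 13.2, 12.8 and 9.72, at percentiles 74.1, 77.8 and 73.4. It extended further upstream of the start (2432, 2861 and 2445 bp) than downstream (1645, 1287 and 1210 bp). All 7 regions of this locus were called in all 3 large lists, and no other member had a locus without a region missing from some list. No other protein-coding gene starts in this locus, which holds for every member but KLF3 and KLF10. Its 6 distal regions were all intergenic, as were those of KLF5 and KLF9. That at -14.9 kb had fold enrichment of 16.2, 19.2 and 13.9, and that at -58.8 kb had 14.3, 13.9 and 14.4, the higher value in Hs578T replicate 2. Both exceeded the promoter peak in each list.

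KLF5, a factor of basal epithelial cells and proliferation, lies on the plus strand at chr13:73054976-73077541. It joined a broad promoter peak to a low fold enrichment. The peak measured 7007, 7785 and 6761 bp, at the 96.2nd, 96.1st and 95.9th percentile of width. Its fold enrichment of 7.11, 7.51 and 6.37 was at the 34.1st, 44.9th and 44.8th percentile. A second annotated start, at -4029 bp, lay inside this peak in MDA-MB-231 replicate 2 and Hs578T replicate 1, and outside its edge at -3793 bp in Hs578T replicate 2. The strongest region of the locus was intergenic, at 80.9 kb, with fold enrichment of 9.27, 10.98 and 9.50 over 4117 to 4619 bp.

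KLF7, which acts in neuronal and adipocyte differentiation, lies on the minus strand at chr2:207074137-207173856. Its promoter peak of 4177, 4233 and 4388 bp had fold enrichment of 14.7, 11.2 and 8.57. The percentile was 79.8 in MDA-MB-231 replicate 2, higher than the 70.4 and 65.8 of the Hs578T lists, by more than their SD of 3.30. The same peak spans the start of the lncRNA MYOSLID, and the mark does not tell strands apart. An annotated internal start at 31811 bp had a separate, weak peak with fold enrichment of 3.90, 4.85 and 3.94. No peak was called in the 100 kb downstream of the gene in any list. Upstream, regions called in all 3 large lists at -74.2, -88.5 and -92.5 kb lay within the lncRNA ENSG00000223725.

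Of the genes for CtBP-binding factors, KLF12 had a strong promoter peak and KLF3 one nearer the middle of the ranks. KLF12, first described as a repressor of an AP-2 gene, is the longest of the 10 genes, at 448 kb on the minus strand (chr13:73686089-74134404). The promoter peak was 3871, 4293 and 4469 bp wide, with fold enrichment of 17.4, 14.5 and 10.9 at percentiles 87.4, 83.5 and 79.3. Because the locus is long, the smallest share of it was covered, 2.55%, 2.95% and 3.15%, although the covered bases (16558, 19107 and 20406) were not fewer than those of KLF5 in any large list. An intronic region at chr13:73932745-73940181, 198 kb into the gene, was wider than the promoter peak at 5967, 6246 and 7437 bp. Its fold enrichment was 10.6, 12.2 and 10.6. KLF12 had 6 of its 7 distal regions in its own introns.

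KLF3, a repressor active in adipocytes and blood cells, lies on the plus strand at chr4:38664197-38701517. The promoter peak of 5003, 5304 and 5328 bp had fold enrichment of 11.7, 10.8 and 8.03, at percentiles 66.6, 68.6 and 61.1, and also spans the start of the antisense lncRNA KLF3-AS1. Nothing else in its locus was strong. The strongest distal region, in an intron at 9.42 kb, had fold enrichment of 4.52, 4.30 and 4.75, below the 50th percentile of all peaks in each list. Its width was 2659, 2172 and 980 bp. TLR10 starts within this locus, and is the only other protein-coding gene to do so.

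For KLF9, a glucocorticoid-responsive gene on the minus strand at chr9:70384604-70414657, the peak covered little or nothing before the start. The peak began at 169 bp from the canonical start in MDA-MB-231 replicate 2, within the gene. In the Hs578T lists it began at -163 and -6 bp, just outside it. It ended 3953, 4115 and 4367 bp downstream of the start, and it covered 832, 1164 and 1007 of the 2001 bases around the start. The other members had at least 1744 of these bases covered in each list. This is the AT-rich promoter printed above. The fold enrichment of the peak was 11.6, 10.1 and 8.15. A region centred at -5.28 kb (chr9:70417966-70421901), in an exon of the lncRNA ENSG00000289159 and over its start, had 36.1, 25.7 and 19.0. Among the peaks read, its peak was number 113 of 43353 in MDA-MB-231 replicate 2. It was number 700 of 46330 in Hs578T replicate 1 and number 1164 of 44920 in Hs578T replicate 2. Otherwise the locus was sparse, with 3, 4 and 3 peaks in all and none downstream of the gene.

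KLF10 had the highest-ranked promoter peak of the genes for SIN3A-binding factors. This gene, also known as TGFβ-inducible early gene, lies on the minus strand of chromosome 8. Its promoter peak measured 6244, 5607 and 5089 bp. It had fold enrichment of 25.5, 17.2 and 13.4, at the 97.5th, 90.1st and 89.0th percentile. The value of MDA-MB-231 replicate 2 was higher than both Hs578T values, which differed by an SD of 0.779. Peaks covered 50.8%, 42.5% and 35.4% of the gene body. Its strongest distal region, at -82.8 kb, had fold enrichment of 14.8, 13.2 and 10.9, and 6 of the 9 distal regions lay upstream. ODF1 is the only other protein-coding gene that starts within this locus.

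KLF13, a regulator of chemokine expression in lymphocytes, lies on the plus strand at chr15:31326835-31435665. It had the narrowest promoter peak of the 10 genes in each list, at 3476, 3364 and 3105 bp. The fold enrichment of that peak was 12.6, 11.8 and 8.57, at percentiles 71.3, 73.5 and 65.8. With 12 distal regions, 7 of them in its own introns, its locus held the most of any member. In an intron, 108 kb from the start and near the end of the gene, a region had fold enrichment of 11.6, 9.52 and 8.09, close to that of the promoter. An annotated start at 13098 bp had no peak in any list.

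**Figure D3:**
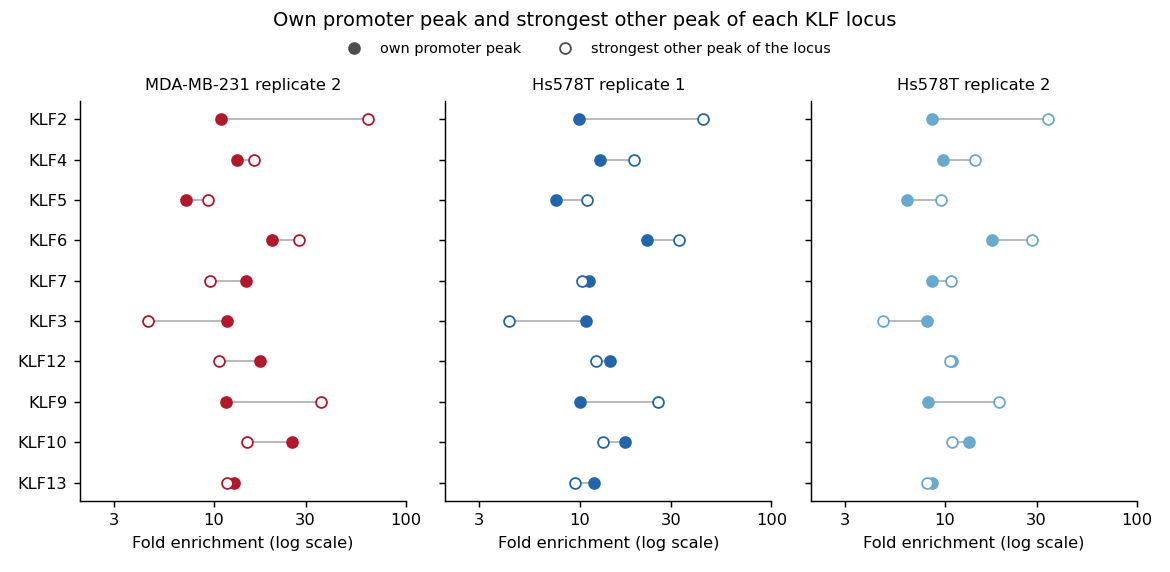
Filled points show the fold enrichment of the own promoter peak of each KLF gene and open points that of the strongest other peak of its locus, on a log scale, in a panel per large list. The open point is to the right for KLF2, KLF4, KLF5, KLF6 and KLF9 in all 3 lists, by the most for KLF2 (63.4 against 10.9 in MDA-MB-231 replicate 2).

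The own promoter peak was the strongest of the locus for 5 genes in MDA-MB-231 replicate 2 and in Hs578T replicate 1 (KLF3, KLF7, KLF10, KLF12 and KLF13), and for 4 in Hs578T replicate 2, where KLF7 dropped out. Among all genes with a promoter peak this held for 26.7%, 24.9% and 23.7%. In the plot of own and other peaks, 4 of the 5 genes of the acetyltransferase-binding group, and KLF9, had a stronger peak elsewhere in every large list. By the shares just given, most genes with a promoter peak do, so this does not set the group apart.

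Every KLF gene had at least 1 peak in its locus in each large list and none in the small list. Over all genes 91.7%, 91.9% and 91.7% had a peak within 100 kb in the large lists, in the order used above, and 2.54% in the small one. The 10 loci held 81, 82 and 82 peaks, which covered 180917, 188843 and 180096 bp. The median share of a locus covered was 5.38%, 5.39% and 5.56%, beside 3.96%, 4.37% and 4.002% over all genes. In the lists 7, 9 and 6 of the 10 genes were above the 50th percentile of all genes. KLF6, with a mean of 22.6% over the 3 lists, and KLF2, with 13.1%, stood above the others. KLF10 (7.67%), KLF5 (7.47%) and KLF4 (6.21%) followed. KLF3 (4.30%), KLF7 (4.30%), KLF13 (4.19%) and KLF9 (4.04%) were separated by less than the SDs between the Hs578T lists of KLF3 and KLF13.

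**Figure D4:**
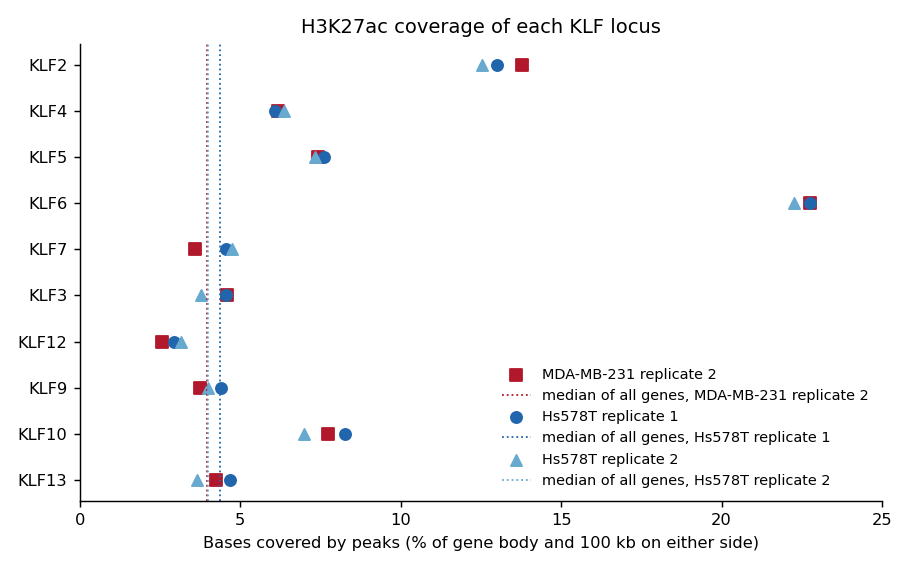
Points show the percentage of each KLF locus (gene body and 100 kb on either side) covered by peaks in each large list, and dotted lines the median over all protein-coding genes in that list. KLF6 lies near 22.6% and KLF2 near 13.1%, and the lists differ little beside the range among genes.

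**Figure D5:**
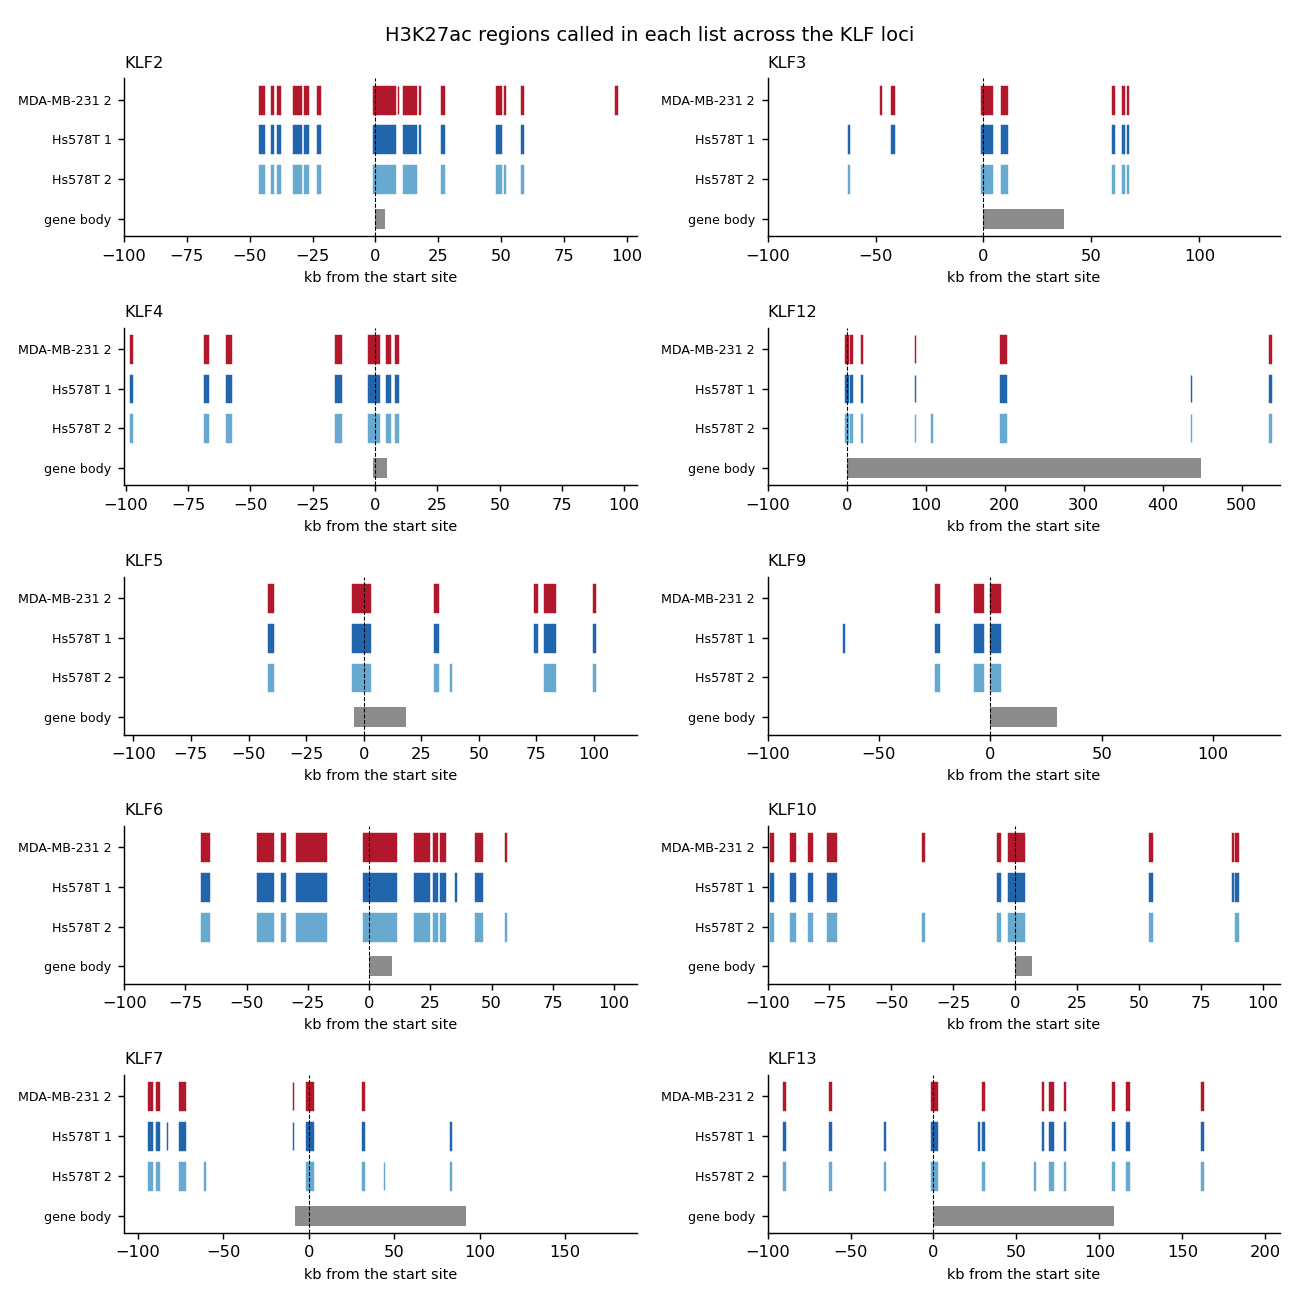
Each panel maps a KLF locus by distance from the start site in kb, with downstream to the right and a scale of its own, and shows the gene body in grey. Coloured bars are regions called in each large list, drawn at the extent of the region merged over lists, and most of the 93 regions recur in all 3.

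Between the lines, the share covered differed little. Compared with MDA-MB-231 replicate 2, the Hs578T mean differed by more than the SD between the Hs578T lists for 4 genes. How many of all genes do so was not computed, and an SD of 2 lists is here set against a single list. The count is therefore not read as a difference between the lines. KLF2 had 13.8% against 12.8% ± 0.333 (SD, n = 2), a difference of -1.02 points. KLF7 had 3.60% against 4.65% ± 0.139 (SD, n = 2), KLF12 2.55% against 3.05% ± 0.142 (SD, n = 2), and KLF9 3.75% against 4.19% ± 0.284 (SD, n = 2). Only KLF7, KLF12 and KLF9 were covered more in both Hs578T lists than in MDA-MB-231 replicate 2, as were 43.8% of all genes. KLF2 and KLF3 were covered less in both, as were 17.8% of all genes. Set against these shares, 3 of 10 is below the first and 2 of 10 is close to the second. No test between lines was made, because 2 libraries against 2 cannot give an exact two-sided permutation p below 0.333. With the small list included, the SD within MDA-MB-231 exceeded the difference between the line means for every member but KLF7. KLF6 then had 11.4% ± 16.1 (SD, n = 2) and KLF7 1.80% ± 2.54 (SD, n = 2).

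Merged over the 3 large lists, the loci held 93 regions. Of these, 68 were called in all 3 lists and 25 in 1 or 2. The partial regions were narrower, with a median width of 507 bp against 1856 bp, although merging over more lists can only widen a region. Their highest fold enrichment was 7.51, in MDA-MB-231 replicate 2, where the median over all peaks read was 5.61. The partial regions did not sort by line. MDA-MB-231 replicate 2 alone had 3, the Hs578T lists together and without it 4, Hs578T replicate 1 alone 4, and Hs578T replicate 2 alone 5. MDA-MB-231 replicate 2 shared 6 more with Hs578T replicate 1 only and 3 with Hs578T replicate 2 only. The Jaccard index, bases covered in both lists over bases covered in either, was 0.826 and 0.812 between MDA-MB-231 replicate 2 and the Hs578T lists, and 0.839 between the Hs578T lists. Over the loci of all genes it was 0.771, 0.760 and 0.780. The small list shared no base with any other at the KLF loci.

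Distal regions numbered 70, of which 50 were called in all 3 large lists. By midpoint, 39 were intergenic, 15 lay in introns of the KLF gene itself, 15 in another gene, and 1 in an exon of the KLF gene. The last, at KLF7, lies over the annotated internal start at 31811 bp and is distal only to canonical starts. Downstream of the start lay 43, and upstream 27. The downstream side also takes in the gene body, 448 kb at KLF12, so more bases were searched there. No density per base was computed, so the 2 counts do not tell whether either side held an excess. Per list there were 61, 61 and 62 distal peaks.

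AP-1, the FOS and JUN family of factors followed in the study, binds TGACTCA and its reverse complement TGAGTCA. Such a motif was present in 33 of 61 distal peaks at the KLF loci in MDA-MB-231 replicate 2 (54.1%, 95% Wilson interval 41.7 to 66.0), in 32 of 61 in Hs578T replicate 1 (52.5%, 40.2 to 64.5) and in 33 of 62 in Hs578T replicate 2 (53.2%, 41.0 to 65.1). Over all distal peaks the shares were 51.9%, 51.1% and 50.3%, within these intervals, which cover counting error only. Between genes the counts ranged from 0 of 6 distal regions at KLF3 to 7 of 9 at KLF10. Short windows are shown around the match nearest the middle of the distal region with the highest mean fold enrichment over the large lists, for KLF2, KLF4, KLF6 and KLF13, read from hg38, with the motif in capitals.
KLF2 region at 13.6 kb, chr19:16339049-16339249, + strand: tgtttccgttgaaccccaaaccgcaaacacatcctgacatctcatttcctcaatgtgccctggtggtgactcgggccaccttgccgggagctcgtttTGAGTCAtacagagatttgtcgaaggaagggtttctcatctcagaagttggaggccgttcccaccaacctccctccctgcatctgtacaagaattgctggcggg
KLF4 region at -14.9 kb, chr9:107504911-107505111, + strand: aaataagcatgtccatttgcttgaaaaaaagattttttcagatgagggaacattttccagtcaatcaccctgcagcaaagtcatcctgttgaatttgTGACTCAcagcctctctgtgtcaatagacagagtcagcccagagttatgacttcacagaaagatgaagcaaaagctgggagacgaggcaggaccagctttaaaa
KLF6 region at -67.1 kb, chr10:3852394-3852594, + strand: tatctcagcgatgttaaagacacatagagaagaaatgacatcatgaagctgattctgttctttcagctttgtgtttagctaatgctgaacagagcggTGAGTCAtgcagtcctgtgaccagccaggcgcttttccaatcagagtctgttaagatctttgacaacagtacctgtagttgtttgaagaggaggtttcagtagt
KLF13 region at 108 kb, chr15:31434586-31434786, + strand: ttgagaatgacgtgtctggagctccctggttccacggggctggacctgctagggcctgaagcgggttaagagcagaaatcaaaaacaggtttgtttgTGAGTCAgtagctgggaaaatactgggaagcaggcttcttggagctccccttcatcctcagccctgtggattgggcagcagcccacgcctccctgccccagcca

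Of these regions, that of KLF6 held 4 AP-1 matches in the part common to the large lists, and those of KLF2, KLF4 and KLF13 held 1 each. At KLF7, KLF9 and KLF10, whose windows are not shown, the region chosen in this way also held 1. The regions chosen in the same way at KLF3, KLF5 and KLF12 held none in their common part. These parts were 980 bp long at KLF3, 4051 bp at KLF5 and 5967 bp at KLF12. Those with matches measured 4817 bp at KLF2, 3004 bp at KLF6, 2326 bp at KLF4 and 1218 bp at KLF13. At KLF7, KLF9 and KLF10 they measured 1128, 1015 and 1395 bp. The match counts are not adjusted for length.

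The rest of the family was also read. Of the other 8 KLF genes on these chromosomes 2 were marked at the start site, KLF11 and KLF16, in every large list. KLF11, a SIN3A-binding relative of KLF10, had fold enrichment of 12.8, 13.7 and 10.5, and KLF16 had 15.1, 8.99 and 7.81. KLF1, KLF8, KLF14, KLF15, KLF17 and KLF18 had none. KLF1, the erythroid founder of the family, had none although peaks covered 12.5%, 13.9% and 11.7% of its locus. The related SP genes, whose products bind GC boxes, had a promoter peak in 6 of 9 cases. Over all genes the share was 58.1%, 58.2% and 56.4% in the large lists, so 6 of 9 is near it. SP3 was highest at 29.8, 24.5 and 17.1, and SP7, SP8 and SP9 had none.

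For partners and regulators of KLF proteins, too, counts were the same in each large list and are to be read against these shares. Of 8 cofactor genes 7 had a promoter peak, among them CTBP1 (fold enrichment 20.5, 20.6 and 11.5), SIN3A (13.8, 12.9 and 10.7) and EP300 (21.6, 16.6 and 11.8), and CTBP2 had none at its canonical start. The kinases and MEF2 factors upstream of KLF2 and KLF4 had one in 5 of 6 cases. MAPK7, which encodes the kinase ERK5, had 21.8, 16.3 and 13.99, MEF2D had 28.9, 29.1 and 23.3, and MEF2B had none. All 3 genes for ubiquitin ligases that act on KLF proteins (WWP1, FBXW7 and SMURF1) were marked. Of 6 known target genes 5 had a promoter peak. THBD, the thrombomodulin gene induced by KLF2 in endothelium, was the highest of these with 32.4, 20.5 and 15.9, whereas NOS3 had none. CCND1 had 13.8, 10.1 and 8.69, and SMAD7 had 8.14, 7.81 and 5.55. CDKN1A had 5.67, 4.24 and 3.83. S1PR1 had 2.69, 3.58 and 2.96, at the 0.168th, 7.97th and 2.96th percentile of marked promoters. The small list had no promoter peak at any of these genes.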

How the data were processed

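H3K27ac ChIP-seq libraries were prepared from fixed, sonicated chromatin. Per the submitters' processing notes and the methods of the study, the authors trimmed reads (Trimmomatic), mapped them to hg38 (Bowtie2), called peaks per library against input (MACS2) and removed blacklisted regions. Versions and peak caller settings are not given in the sources used here. The deposited lists have 9 columns per peak, made by the authors' peak caller. The score the authors deposited in column 5 was the −log10 q-value times 10, cut to a whole number. Column 7 as deposited by the authors is a fold enrichment, the ratio of a peak's signal to local background, averaged over broad peaks. The −log10 p-values and q-values were likewise deposited by the authors. Broad mode was inferred from the number of columns. Read totals were not used here and the depth is therefore unknown, although the number and width of separately called peaks depend on it and on the input.

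Groups and replicate numbers came from the sample titles. The methods of the study call the replicates biological, and the labels add nothing on how they were separated. Python 3.11.15 with numpy 2.4.6, scipy 1.17.1 and pysam 0.24.0 was used, after the functions for promoter, coverage and distal calls had been checked on simulated peaks. Start sites were those of Ensembl canonical transcripts in GENCODE release 44 (hg38). A promoter peak reached within 1 kb of the start site (at least 1 bp of overlap), and the one with the highest fold enrichment counted. Percentiles are mid-ranks within a list. Distal peaks lay over 2.5 kb from every canonical start site of any gene type. Merged regions join peaks of the large lists that overlap. No test between lines was made. The members, gene lists and settings were chosen with earlier results of these data known, although no measured value enters the rule for the members. All 10 members are named, and the other genes come from lists of family members, partners, regulators, targets and cell type markers.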

Additional observations from a re-analysis of the deposited data

How the results depend on the processing

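Of 55 recomputed values over 16 results, 35 stayed within a set limit and 20 moved. For counts the limit was 1.5 times. For the Jaccard index it was the SD over the pairs of large lists, and for AP-1 shares the Wilson interval. Otherwise it was the SD between the Hs578T lists, or, for the mean of both MDA-MB-231 lists, the SD between these. The small list sets that last SD, so the median share covered, 2.69%, counted as unchanged at 0% or 5.38% with 1 list left out. Every KLF gene kept a promoter peak in the large lists with windows of 500 bp or 2.5 kb, with all basic start sites, and among the strongest 50% of peaks. The mean over both MDA-MB-231 lists was 5 genes with a promoter peak, and 0 to 10 when 1 replicate was left out, which is set by the small list. The median promoter percentile in MDA-MB-231 replicate 2 and as the Hs578T mean became 84.9 and 80.7 among all peaks, and 64.8 and 59.4 among the strongest 50%. The median share of a locus covered became 8.17% and 7.21% with 50 kb flanks, and 4.31% and 4.17% with the strongest 50%, which left 22 and 26 distal peaks. With 50 kb flanks the Jaccard index was 0.850 and 0.831 between MDA-MB-231 replicate 2 and the Hs578T lists and 0.854 between the latter, and with the strongest 50% it was 0.862 between the Hs578T lists and 0.838 for the list of replicate 2 of MDA-MB-231 and that of Hs578T. The share of distal peaks with an AP-1 motif was 29.5%, 31.1% and 30.6% in the central 500 bp, beside 32.0%, 30.7% and 30.4% over all distal peaks. No paired analysis was possible because no result comes from a test and the lines share replicate numbers only. Only peaks past the authors' threshold were seen, so a locus without a peak may still carry the mark.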
